A study of Mus musculus with 6 samples.

Results

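The genes described here encode the subunits, activators, inhibitor and assembly factors of the proteasome, in activated mouse CD4+ T cells with and without a conditional deletion of Satb1. Members were all protein-coding genes of GENCODE M21 (GRCm38) whose symbol is Psma, Psmb, Psmc, Psmd, Psme, Psmf or Psmg followed by a digit. That rule took 50 of the 55401 genes in the count tables, and 48 of the 50 had enough reads to be tested. RNA sequencing covered 3 libraries labelled as Satb1 conditional knockout (called Satb1 cKO, from Satb1 flox/flox CD4-Cre mice) and 3 control libraries labelled WT. In both groups naive CD4+ T cells had been isolated from the spleen on magnetic beads and were then stimulated for 24 h with antibodies to CD3 and CD28. Cre driven by Cd4 regulatory sequences acts from thymic development onward in cells that have expressed Cd4, and whether control mice carried Cre or a flox allele is not given in the labels, nor is the age of the mice. Separate mice for the 3 libraries of a group are not stated in the labels, so the p-values rest on a spread between libraries that may be technical.

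The proteasome is the protease complex that degrades proteins tagged with ubiquitin. Its core is a barrel of alpha and beta rings, and catalysis takes place in the beta subunits encoded by Psmb5, Psmb6 and Psmb7. A regulatory particle caps the barrel, with a base of ATPases that unfold substrates and a lid that removes ubiquitin. After interferon signals, and in lymphocytes at rest, the inducible subunits encoded by Psmb8, Psmb9 and Psmb10 can take the places of the 3 constitutive catalytic subunits. With the activator made of the Psme1 and Psme2 products they form the immunoproteasome, known for making peptides that fit MHC class I molecules. Activated T cells depend on the proteasome for cell cycle progression and for NF-kB signalling.

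Reads on genes ranged from 14895389 to 20266626 per library. Satb1 itself was lower in Satb1 cKO libraries, at 426, 546 and 462 CPM, against 712, 851 and 727 CPM in control libraries (log2 fold change -0.68, SE 0.0866, adjusted p = 9.7e-05), counted over the whole gene and thus including exons that Cre may leave in place. Levels in CPM are reads of a gene as a share of all reads in its library, on one common scale after TMM scaling of library sizes. The 9 T cell identity genes were all tested, with 1 higher and 6 lower, and their summed level was 2359 to 2420 CPM in Satb1 cKO and 3176 to 3269 CPM in control libraries. Cd4, which defines the labelled cell type, was detected in every library and was lower in Satb1 cKO (log2 fold change -1.75, SE 0.0382, adjusted p = 2.28e-10). Red cell genes (7 of 7 tested, 7 higher) summed to 310 to 1862 CPM in Satb1 cKO and 24.9 to 31.4 CPM in control libraries. Myeloid genes (9 of 10 tested, 9 higher) summed to 59.9 to 133.8 CPM in Satb1 cKO and 13.5 to 16.2 CPM in control libraries. B cell genes (5 of 8 tested, 2 higher) summed to 10.2 to 13.7 CPM in Satb1 cKO and 3.84 to 7.91 CPM in control libraries. Dendritic cell genes (2 of 6 tested, 1 higher) summed to 16.1 to 16.8 CPM in Satb1 cKO and 3.84 to 4.70 CPM in control libraries. Most of that sum was Zbtb46, the gene called higher, with means of 13.8 CPM in Satb1 cKO and 2.69 CPM in control libraries. Flt3, also tested, did not pass (log2 fold change 0.004, adjusted p = 0.993). NK cell genes (1 of 5 tested, 1 higher) summed to 10.8 to 15.2 CPM in Satb1 cKO and 4.78 to 6.92 CPM in control libraries. Most of this sum was Eomes, the gene called higher, with means of 11.0 CPM in Satb1 cKO and 5.26 CPM in control libraries. The other NK cell genes had too few reads to be tested. The 2 CD8 genes (1 higher) summed to 22.5 to 29.6 CPM in Satb1 cKO and 17.6 to 21.4 CPM in control libraries. Of all 13364 tested genes, 21.6% were called higher and 20.7% lower in Satb1 cKO. No gene on these marker lists was at 0 in all 6 libraries, and the part of other cell types in the differences given here was not tested. In bulk samples, fewer cells of a type and less RNA per cell cannot be told apart.

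Of the 48 tested members, 27 rose in Satb1 cKO and 0 fell (edgeR quasi-likelihood test, Benjamini-Hochberg adjusted p under 0.05). That is 56.25% of the tested members higher, where 21.6% of all 13364 tested genes were called higher and 20.7% lower. Fold changes were positive in 42 members and negative in 6, and the median log2 fold change was 0.18, against 0.0034 over all tested genes. The differences were small. Among the 27 members that rose, the increase ran from 9.63% for Psma7 to 34.6% for Psmd8, with a median of 20.2%. With the requirement that the change exceed 1.2-fold, 3 members passed as higher, Psmd8, Psmb6 and Psme2, and 0 as lower. That is 6.25% of the tested members higher, where 9.14% of all tested genes passed as higher and 8.39% as lower. Among genes at least as abundant as the least abundant tested member, 8.16% passed as higher. The difference between these shares was not tested. All 3 Satb1 cKO libraries lay above all 3 control libraries in 31 members (64.6%), where this held for 27% of all tested genes, and lay below them in 0 members, where this held for 26.5%.

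**Figure D1:**
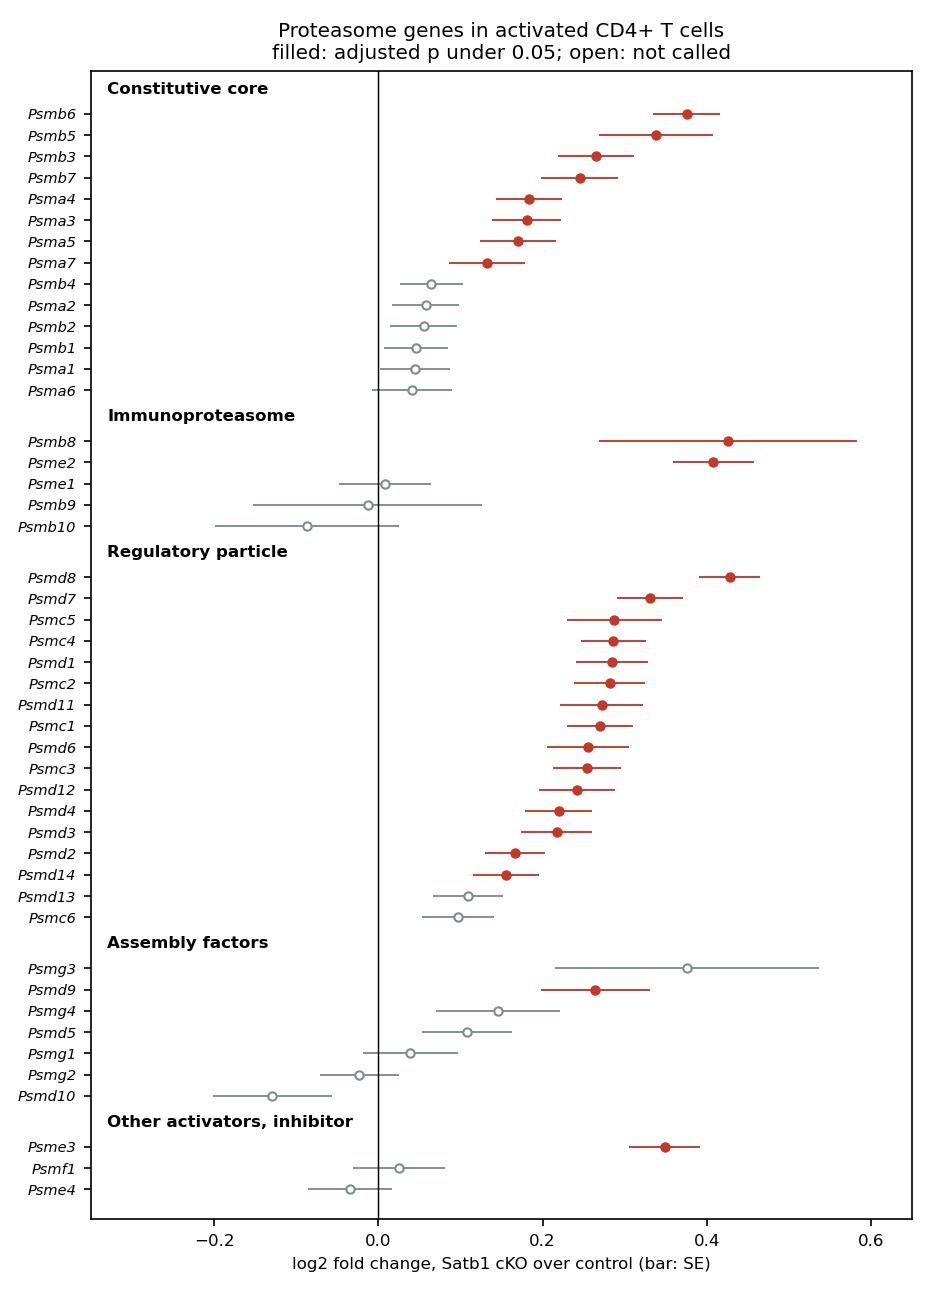
Log2 fold change of Satb1 cKO over control (horizontal axis, bars show the SE) for the tested proteasome genes, grouped by role, with filled points for genes called at an adjusted p under 0.05. All 17 regulatory particle genes lie to the right of 0 and 15 are filled, while the immunoproteasome and assembly factor genes lie on both sides of 0.

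**Figure D2:**
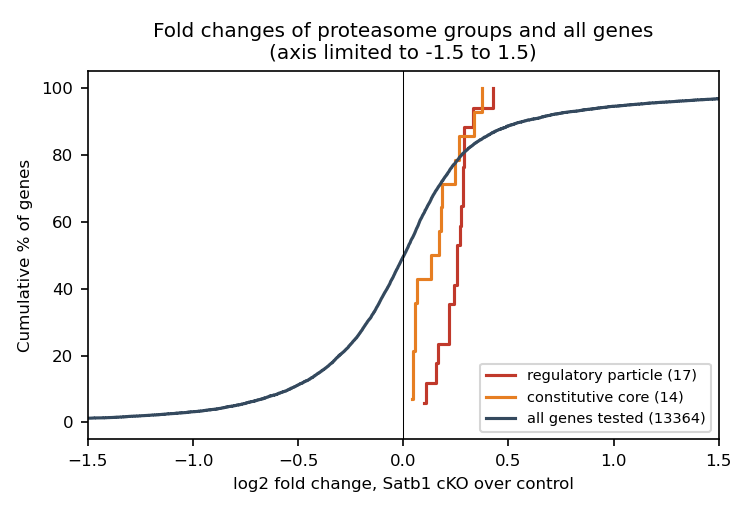
Cumulative percentage of genes (vertical axis) by log2 fold change of Satb1 cKO over control (horizontal axis, limited to -1.5 to 1.5) for regulatory particle genes, constitutive core genes and all genes tested. The regulatory particle curve runs from 0.10 to 0.43 and the core curve from 0.04 to 0.38, within the range of the curve of all genes.

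The regulatory particle held the most uniform change, with 15 of 17 genes higher and 0 lower. That is 88.2% higher, where 21.6% of all tested genes were higher and 20.7% lower. The median log2 fold change of the 17 genes was 0.25. In all 17 genes, the 2 that were not called included, each Satb1 cKO library lay above each control library. Among all tested genes this held for 27%. Summed over the 17 genes, the level was 4219, 4081 and 4099 TPM in Satb1 cKO libraries 1, 2 and 3, against 3657, 3467 and 3512 TPM in control libraries 1, 2 and 3, and the groups did not overlap. TPM divides reads by the exon length of each gene and scales every library to the same total, so that levels of different genes can be set side by side. The mean sum was 16.6% higher in Satb1 cKO in TPM and 18.5% higher in CPM. In the same Satb1 cKO libraries 1, 2 and 3, red cell genes summed to 310, 1862 and 1609 CPM and myeloid genes to 94.5, 59.9 and 134 CPM, all above every control library. The part of these cells in the regulatory particle result was not tested.

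Psmd8 (chromosome 7, 29174188 to 29180701, GRCm38), which encodes a lid subunit, showed the largest rise of all members. It stood at 263, 266 and 266 CPM in Satb1 cKO libraries, against 197, 195 and 199 CPM in control libraries (log2 fold change 0.43, SE 0.0371, adjusted p = 5.29e-06). The replicates of each group lay within a few CPM of each other, and the groups were far apart on that scale. Psmd7, another lid subunit and the partner of the deubiquitinase Psmd14, stood at 249, 243 and 242 CPM in Satb1 cKO and 201, 193 and 190 CPM in control libraries (0.33, SE 0.0401, adjusted p = 6.36e-05). The ATPase gene Psmc4 stood at 168, 168 and 169 CPM in Satb1 cKO and 141, 138 and 135 CPM in control libraries (0.29, SE 0.0392, adjusted p = 0.000155). Psmc1, an ATPase gene as well, stood at 240.3, 230.1 and 243 CPM in Satb1 cKO and 199.6, 195 and 198 CPM in control libraries (0.27, SE 0.0400, adjusted p = 0.000269). All of these genes had every Satb1 cKO value above every control value.

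By place in the particle, 5 of 6 ATPase genes of the base rose. Psmc2, Psmc3 and Psmc5 completed the called ones, with log2 fold changes of 0.28, 0.25 and 0.29, and Psmc6 did not pass (0.10, SE 0.0437, adjusted p = 0.0981). The large scaffold subunits of the base, Psmd1 and Psmd2, rose by 21.8% and 12.2%. Psmd4, which encodes a receptor for ubiquitin chains, rose by 16.4%. In the lid 7 of 8 genes rose. Besides Psmd8 and Psmd7 these were Psmd11, Psmd6, Psmd12 and Psmd3 (log2 fold changes of 0.27, 0.25, 0.24 and 0.22) and Psmd14, the deubiquitinase that cuts chains off the substrate (0.16, SE 0.0408, adjusted p = 0.00966). Psmd14 lost its call without control replicate 3 (0.13, adjusted p = 0.0551). Psmd13 was at 0.11 (SE 0.0428, adjusted p = 0.0601). Regulatory particle genes differed among themselves in transcript level per exon length, with mean control levels from 100 TPM for Psmc2 to 388 TPM for Psmd2. Such levels depend on the length used, which for Psmc2 is 5031 bases of exons but 1785 in its longest coding transcript.

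**Figure D3:**
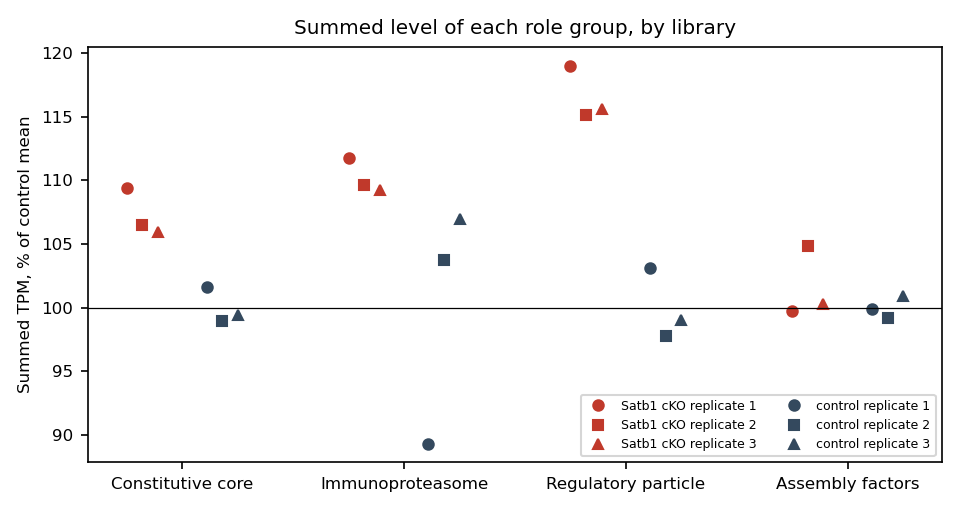
Summed TPM of each role group as a percentage of its control mean (vertical axis, not starting at 0), with 1 point per library and the Satb1 cKO libraries left of the control libraries. The regulatory particle lies at 115.1% to 119% in Satb1 cKO libraries and 97.8% to 103.1% in control libraries, whereas in the immunoproteasome group control replicate 1 lies at 89.3%, below the other 5 libraries.

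In the constitutive core, 8 of 14 genes rose and 0 fell, and the median change was 0.15 on the log2 scale. That is 57.1% higher, where 21.6% of all tested genes were higher and 20.7% lower. The summed level was 3820, 3720 and 3699 TPM in Satb1 cKO libraries, against 3548, 3455 and 3472 TPM in control libraries, with no overlap, and the mean was 7.29% higher in TPM and 9.40% higher in CPM. The change was unequal across the barrel. All 3 constitutive catalytic genes rose, 4 of 7 alpha ring genes did (median log2 fold change 0.13), and 1 of 4 structural beta genes did (median 0.06). Summed over the catalytic genes, the level was 24.1% higher in Satb1 cKO, over the alpha ring 5.45% higher and over the structural beta genes 4.52% higher.

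Psmb6 (chromosome 11, 70525367 to 70527858), whose product cuts after acidic residues, stood at 146, 141 and 145 CPM in Satb1 cKO and 113, 108 and 111 CPM in control libraries (log2 fold change 0.38, SE 0.0409, adjusted p = 2.97e-05). Psmb5, which encodes the chymotrypsin-like subunit and the main target of the drug bortezomib, stood at 42.8, 38.0 and 41.8 CPM in Satb1 cKO and 31.3, 34.6 and 31.1 CPM in control libraries (0.34, SE 0.0689, adjusted p = 0.00225). Psmb7, which encodes the trypsin-like subunit, stood at 80.7, 79.2 and 76.3 CPM in Satb1 cKO and 67.4, 64.3 and 67.6 CPM in control libraries (0.25, SE 0.0472, adjusted p = 0.00157). In each of the 3, every Satb1 cKO value exceeded every control value, and the closest values were those of Psmb5, in replicate 2 of each group. Psmb3 was the structural beta gene that rose. It stood at 152, 147 and 138 CPM in Satb1 cKO and 120.5, 121 and 122 CPM in control libraries (0.27, SE 0.0459, adjusted p = 0.000777).

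The alpha ring genes that rose were Psma3, Psma4, Psma5 and Psma7, by 13.3%, 13.6%, 12.5% and 9.63%. These rises were the smallest of the called core genes. Psma3 and Psma4 were called whichever library was left out, and Psma5 and Psma7 were not. Psma7 lost its call when any of control replicates 1 or 2 or Satb1 cKO replicates 1, 2 or 3 was left out (adjusted p of 0.0345 to 0.137 over the 6 leave-one-out fits). Psma5 lost its call without control replicate 2 (log2 fold change 0.14, adjusted p = 0.0596) and without control replicate 3 (0.14, adjusted p = 0.0657). Psma1, Psma2, Psma6, Psmb1, Psmb2 and Psmb4 had log2 fold changes of 0.04 to 0.06 and did not pass (adjusted p from 0.201 to 0.533). For Psmb4 the Satb1 cKO libraries still lay above the control libraries, and for the other 5 the groups overlapped.

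The immunoproteasome genes did not move together. Of the 5 genes, 2 rose, Psmb8 and Psme2, and 0 fell. That is 40% higher, where 21.6% of all tested genes were higher and 20.7% lower. The median log2 fold change over the 5 was 0.0085. Psme2 and Psme1, which encode the subunits of one activator ring, lie close to each other on chromosome 14 (55587441 to 55591113 and 55578123 to 55581529). Psme2 stood at 327, 329 and 331 CPM in Satb1 cKO and 229, 256 and 259 CPM in control libraries (log2 fold change 0.41, SE 0.0488, adjusted p = 5.87e-05). Psme1 stood at 407, 414 and 391 CPM in Satb1 cKO and 365, 409 and 431 CPM in control libraries (0.01, SE 0.0558, adjusted p = 0.915). The Psme2 groups were separate and the Psme1 groups overlapped. The sequence of Psme2 has a copy without introns, Psme2b (chromosome 11), and reads that fit both places may be missing from the counts or split between them, so both counts are uncertain. Psme2b stood at 16.9 ± 0.403 CPM in Satb1 cKO and 14.1 ± 2.30 CPM in control libraries (adjusted p = 0.0863), and it was called higher without control replicate 3 (log2 fold change 0.39, adjusted p = 0.0137).

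Among the inducible catalytic genes, Psmb8 (chromosome 17, 34197721 to 34201454) stood at 59.98, 43.3 and 44.2 CPM in Satb1 cKO and 27.8, 43.0 and 40.2 CPM in control libraries (log2 fold change 0.43, SE 0.157, adjusted p = 0.0474). Satb1 cKO replicate 1 was the highest and control replicate 1 the lowest library, and the other 4 lay between 40.2 and 44.2 CPM. The groups did not overlap, by a margin of less than 1 CPM between 43.3 CPM in Satb1 cKO replicate 2 and 43.0 CPM in control replicate 2. Psmb8 lost its call without Satb1 cKO replicate 1 (0.26, adjusted p = 0.209), without Satb1 cKO replicate 3 (0.49, adjusted p = 0.0552), without control replicate 1 (0.24, adjusted p = 0.126) and without control replicate 3 (0.49, adjusted p = 0.0638). It also lost it with DESeq2's Wald test (adjusted p = 0.224) and with the replicate number as a block (adjusted p = 0.103). Over all alternatives its adjusted p ran from 3.61e-08 to 0.245. The lowest value came without a filter on low counts, a fit in which the estimated prior degrees of freedom were infinite, so that the gene's own quasi-dispersion of 9.66 was replaced by 0.735 and its spread between replicates did not enter the p. Exons of Psmb8 overlap an antisense gene, Gm20496, over 14.7% of their length, and whether counting used strand is not given in the sources used here.

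Psmb9 (chromosome 17, 34181987 to 34187764), the neighbour of Psmb8 with the peptide transporter gene Tap1 between them, stood at 81.8, 75.8 and 79.2 CPM in Satb1 cKO and 57.6, 95.1 and 87.8 CPM in control libraries (log2 fold change -0.01, SE 0.139, adjusted p = 0.949). Psmb10 (chromosome 8, 105935735 to 105938444) stood at 48.8, 45.5 and 44.1 CPM in Satb1 cKO and 38.8, 55.1 and 54.1 CPM in control libraries (-0.09, SE 0.112, adjusted p = 0.564). For both genes the 3 Satb1 cKO values fell between control replicate 1 and the other 2 control libraries. Without control replicate 1, both were called lower in Satb1 cKO, Psmb9 with a log2 fold change of -0.22 (adjusted p = 0.00456) and Psmb10 with -0.25 (adjusted p = 0.00581). Over all alternatives that kept this library, neither was called. With it left out, Psme2 was still called higher (0.34, adjusted p = 6.67e-06), and Psmb6, Psmb5 and Psmb7 were called higher with log2 fold changes of 0.38, 0.30 and 0.25.

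**Figure D4:**
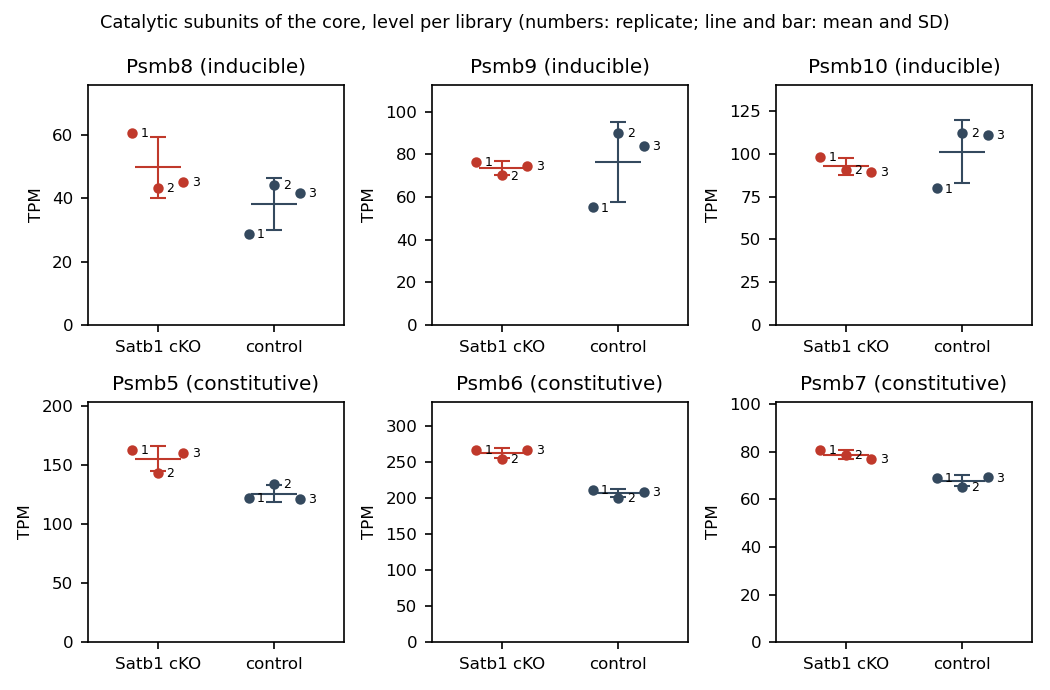
Level in TPM (vertical axes) of each inducible catalytic subunit gene (top) and of the constitutive gene whose place its product can take (bottom), with 1 point per library numbered by replicate, and the mean and SD as line and bar. In all 3 inducible genes control replicate 1 is the lowest of the 6 libraries, and in all 3 constitutive genes every Satb1 cKO library lies above every control library.

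The inducible and constitutive genes were then set against each other within each library, which takes library scaling out of the comparison. Per kilobase of exon, Psmb9 reached 0.287, 0.276 and 0.279 of Psmb6 in Satb1 cKO libraries, against 0.261, 0.449 and 0.403 in control libraries. Psmb10 reached 1.21, 1.15 and 1.16 times the level of Psmb7 in Satb1 cKO libraries, against 1.15, 1.72 and 1.61 in control libraries. Psmb8 reached 0.373, 0.303 and 0.282 of Psmb5 in Satb1 cKO libraries, against 0.236, 0.330 and 0.343 in control libraries. The size of these ratios depends on the length used, so it does not settle which gene of a pair is more abundant. Psmb10 and Psmb7 have 1705 and 3421 bases of exons, but 1311 and 1160 bases in their longest coding transcripts. Length is the same in every library and does not enter the comparison between groups. The Satb1 cKO ratios of the Psmb9 and Psmb10 pairs were close together and matched control replicate 1 more nearly than the other control libraries, and all 3 pairs overlapped between groups. The differences in mean log2 ratio were -0.37 for Psmb9, -0.33 for Psmb10 and 0.08 for Psmb8 (exact permutation test, two-sided, p = 0.4, 0.3 and 0.8, where the smallest p that 3 libraries against 3 allow is 0.1). Without control replicate 1 these differences were -0.60, -0.50 and -0.09, the last with its sign turned.

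Control replicate 1 stood apart from the other control libraries over all genes with enough reads, genes that interferon is known to induce among them. The chi-square per degree of freedom between its counts and those of control replicates 2 and 3 was 7.6 and 6.7, against 2.2 between replicates 2 and 3. Satb1 cKO replicate 1 stood apart too (6.0 and 5.5, against 2.9 between the others). The level in control replicate 1 relative to the mean of control replicates 2 and 3 had a median of 0.71 over the 5 immunoproteasome genes (0.63 to 0.89). All 5 had their lowest value of the 6 libraries there. Irf1 and Nlrc5, which encode transcription regulators of the interferon response and of MHC class I genes, stood at 0.58 and 0.66 of that mean, and Tap1 at 0.62. Over the 12 class I processing genes the ratio had a median of 0.81 (0.62 to 1.06), and 8 were lowest in control replicate 1. Over the 11 interferon signalling genes it had a median of 0.72 (0.23 to 1.04), and 7 were lowest there. Some of these drops were small, as in Calr (0.98) and Ifnar2 (0.93), and Canx, Lnpep, Tpp2 and Jak2 were above that mean. The share of all tested genes lowest in this library was not counted. Over the 17 regulatory particle genes the same ratio had a median of 1.04 (0.97 to 1.11) and over the 14 core genes 1.02 (0.92 to 1.09). The part of this library difference in the immunoproteasome result was measured only by leaving the library out, as given above.

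**Figure D5:**
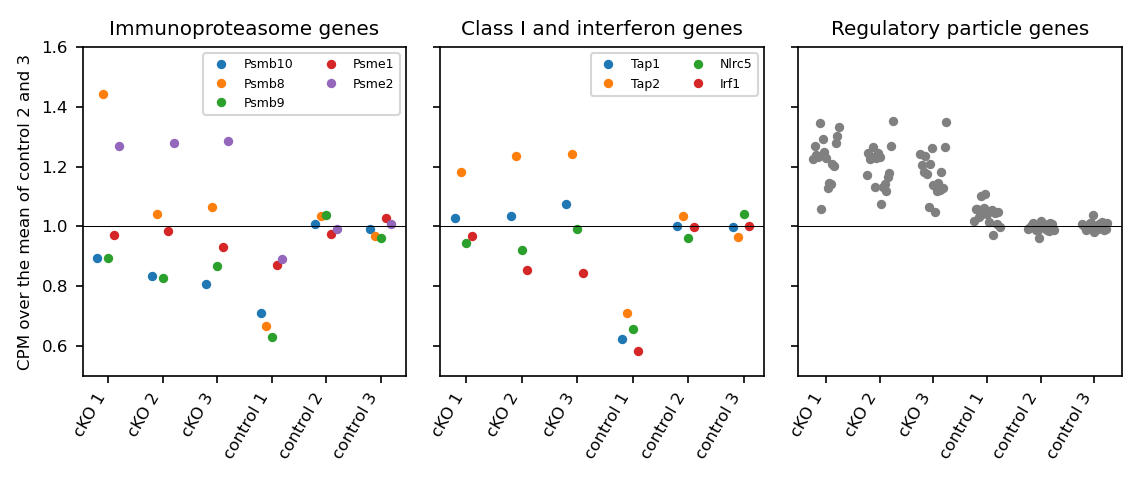
CPM of each gene divided by the mean of control replicates 2 and 3 (vertical axis) in the 6 libraries, for immunoproteasome genes, for 4 class I and interferon genes chosen after their values were seen, and for the 17 regulatory particle genes. In control replicate 1 the points of Psmb8, Psmb9 and Psmb10 lie at 0.63 to 0.71 and that of Irf1 at 0.58, while the regulatory particle points lie at 0.97 to 1.11.

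Stretches of 150 bases before a RefSeq start of Psmb8, Psmb9, Psmb10, Psmb6 and Psmd8 (GRCm38.p6) are shown because these genes carry the contrast between the inducible subunits and the members with the clearest rises. Capitals mark matches, on either strand, to the STAT motif TTCNNNGAA, to the same motif with a spacer longer by 1 base, to the interferon response element core (GAAA repeated after any 2 bases) or to the antioxidant response element core (TGANNNNGC). RefSeq starts differ from the GENCODE gene ends given above, so the stretches of Psmb8, Psmb9, Psmb10 and Psmd8 lie partly or wholly inside the GENCODE gene. They run 5′ to 3′ on the strand of the gene: chr17:34198045-34198194 (+) for Psmb8, chr17:34187331-34187480 (-) for Psmb9, chr8:105938393-105938542 (-) for Psmb10, chr11:70525207-70525356 (+) for Psmb6 and chr7:29180674-29180823 (-) for Psmd8.
Psmb8: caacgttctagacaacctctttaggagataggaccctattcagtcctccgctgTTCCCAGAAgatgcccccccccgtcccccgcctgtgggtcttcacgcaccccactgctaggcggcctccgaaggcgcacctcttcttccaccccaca
Psmb9: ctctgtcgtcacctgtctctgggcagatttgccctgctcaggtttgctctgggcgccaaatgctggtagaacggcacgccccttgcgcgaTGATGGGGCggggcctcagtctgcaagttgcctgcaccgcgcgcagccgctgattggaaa
Psmb10: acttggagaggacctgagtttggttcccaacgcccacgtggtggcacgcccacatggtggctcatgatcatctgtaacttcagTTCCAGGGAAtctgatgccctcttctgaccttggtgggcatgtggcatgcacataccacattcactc
Psmb6: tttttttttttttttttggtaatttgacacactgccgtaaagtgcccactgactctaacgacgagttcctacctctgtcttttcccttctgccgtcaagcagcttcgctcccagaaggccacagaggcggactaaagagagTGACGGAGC
Psmd8: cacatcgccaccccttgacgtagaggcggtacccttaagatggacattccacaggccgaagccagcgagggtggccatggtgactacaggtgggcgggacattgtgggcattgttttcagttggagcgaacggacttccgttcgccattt

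The same motifs were counted in windows of 300 bases around the start, which RefSeq gave for 42 of the 50 members and for 27025 genes in all. The antioxidant response element core was in the windows of 24 members (57.1%), against 45% of all genes. By group it was in 8 of 11 core (72.7%), 3 of 5 immunoproteasome (60%) and 4 of 6 assembly factor genes (66.7%). In the regulatory particle it was in 6 of 14 genes (42.9%), a share near that of all genes. The difference between these shares was not tested. The interferon response element core was in 5 members (11.9%), among them 1 of the 5 immunoproteasome genes, against 3.99% of all genes. TTCNNNGAA was in 3 members (7.14%, against 9.55% of all genes) and its form with the longer spacer in 1 (2.38%, against 8.01%). A window can hold several motifs. These are letter matches in short windows and say nothing of binding.

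Of 7 assembly factor genes, 1 rose and 0 fell, a share higher of 14.3% where 21.6% of all tested genes were higher. The median log2 fold change was 0.11, and the summed level was 544, 572 and 548 TPM in Satb1 cKO and 546, 541 and 551 TPM in control libraries, which overlapped. Psmd9, a chaperone of the ATPase ring, was the gene that rose. It stood at 33.9, 31.5 and 34.3 CPM in Satb1 cKO and 28.4, 26.1 and 28.4 CPM in control libraries (0.26, SE 0.0665, adjusted p = 0.00783), and 25.5% of its exon length overlaps a noncoding gene on the other strand. The other base chaperones, Psmd5 and Psmd10, were at 0.11 and -0.13 (adjusted p = 0.136 and 0.176), and Psmd5 was called higher without control replicate 1 (0.15, adjusted p = 0.042). The 4 chaperones of the core that the symbol rule took were Psmg1, Psmg2, Psmg3 and Psmg4. They had log2 fold changes of 0.04, -0.02, 0.38 and 0.15 and did not pass. The core assembly gene Pomp, which has a symbol of another form and is counted below among partner genes, rose (0.18, SE 0.0439, adjusted p = 0.00591). Psmg3 was the least abundant tested member, at 5.17 ± 0.587 CPM in Satb1 cKO and 3.98 ± 0.372 CPM in control libraries (adjusted p = 0.0827).

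Of the other regulators, Psme3, which encodes a nuclear activator that works without ubiquitin, had the highest mean level of all members per exon length in both groups (813 TPM in Satb1 cKO and 653 TPM in control libraries) and rose. This rank depends on the length used, here 2949 bases of exons in Psme3, 2209 in Psme1 and 1764 in Psme2. Their longest coding transcripts have 2664, 1112 and 962 bases, and a rank by these is not given. Psme3 stood at 721, 691 and 692 CPM in Satb1 cKO and 587, 537 and 529 CPM in control libraries (log2 fold change 0.35, SE 0.0438, adjusted p = 8.31e-05), and the groups did not overlap. Psme4, which encodes the large activator known for histone degradation in germ cells, stood at 122, 125 and 119 CPM in Satb1 cKO and 116, 129 and 130.1 CPM in control libraries (-0.03, SE 0.0512, adjusted p = 0.62). Psmf1, which encodes the inhibitor and adaptor PI31, stood at 72.5, 73.5 and 73.2 CPM in Satb1 cKO and 70.1, 77.7 and 67.7 CPM in control libraries (0.03, SE 0.0558, adjusted p = 0.745). Both overlapped between groups. The testis subunit gene Psma8 and the thymic epithelial subunit gene Psmb11 had 18 and 5 reads over all 6 libraries and were the 2 members not tested. Psmc3ip, which the symbol rule also takes, encodes a factor of meiotic recombination and no subunit, and it stood at 15.7 ± 0.917 CPM in Satb1 cKO and 15.9 ± 1.21 CPM in control libraries (adjusted p = 0.842).

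Genes that work with the proteasome but carry other symbols changed in both directions. Of 16 tested partner genes, 8 rose, 3 fell and 5 did not pass, and their median log2 fold change was 0.13. That is 50% higher and 18.75% lower, where 21.6% of all tested genes were higher and 20.7% lower, so the share that fell was near that of all genes. Among them Sem1, a lid subunit with a symbol of another form, rose (0.25, SE 0.0623, adjusted p = 0.00763). Adrm1, which encodes a ubiquitin receptor of the base, rose most clearly, with 165 ± 4.98 CPM in Satb1 cKO and 124 ± 3.23 CPM in control libraries (0.41, SE 0.0428, adjusted p = 2.05e-05). Akirin2, which encodes a factor for nuclear import of proteasomes, rose as well (0.38, SE 0.0617), as did Zfand5 and Ubqln1 (0.27 and 0.24). Uchl5, Ddi2 and Ecpas were the 3 that fell, with log2 fold changes of -0.17, -0.21 and -0.11. Uchl5 encodes a deubiquitinase that binds the Adrm1 product, and Ddi2 the protease that activates the Nfe2l1 product.

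Nfe2l1 encodes the transcription factor that induces proteasome genes when proteasome activity is limiting. Of the 7 genes around this factor, 3 rose and 2 fell, where 21.6% of all tested genes were higher and 20.7% lower. Nfe2l1 was at 293 ± 3.96 CPM in Satb1 cKO and 209 ± 2.28 CPM in control libraries (log2 fold change 0.49, SE 0.0372, adjusted p = 1.92e-06). Mafg and Mafk, which encode small Maf partner proteins, rose (0.49 and 0.36), while Nfe2l2, the gene of the related oxidative stress factor, fell (-0.26, SE 0.0564, adjusted p = 0.00354). Ngly1, which encodes the enzyme that removes sugars from the Nfe2l1 product, also fell (-0.19, SE 0.0584, adjusted p = 0.0198). Of 11 genes for ubiquitin and the unfoldase p97, 7 rose and 1 fell. That is 63.6% higher and 9.09% lower, where 21.6% of all tested genes were higher and 20.7% lower. Vcp, the p97 gene, was at 920 ± 22.6 CPM in Satb1 cKO and 723 ± 10.6 CPM in control libraries (0.35, SE 0.0330, adjusted p = 1.07e-05). Nploc4 and Ubxn1 rose too (0.27 and 0.22), and Rps27a, which encodes a ubiquitin fusion with a ribosomal protein, fell (-0.12).

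Downstream of the immunoproteasome, 6 of 12 class I processing genes rose and 3 fell, with 0.23 as the median log2 fold change. That is 50% higher and 25% lower, where 21.6% of all tested genes were higher and 20.7% lower. In control replicate 1, 8 of the 12 had their lowest value, and the share of all tested genes lowest there was not counted. Tapbpl, which encodes a peptide editor, stood at 148 ± 2.31 CPM in Satb1 cKO and 69.8 ± 12.5 CPM in control libraries (1.09, SE 0.0983, adjusted p = 7.21e-06), and Calr and Pdia3, genes of chaperones of the peptide loading complex, rose by 0.55 and 0.23 on the log2 scale. Lnpep, which encodes a trimming peptidase, fell (-0.27, SE 0.0354). Tap1, next to Psmb9, did not pass (0.26, SE 0.137, adjusted p = 0.152), with 445, 448 and 466 CPM in Satb1 cKO and 269, 433 and 433 CPM in control libraries. Of 11 interferon signalling genes, 3 rose and 2 fell, shares of 27.3% and 18.2% that are near the 21.6% and 20.7% of all tested genes. In control replicate 1, 7 of the 11 had their lowest value, a count with the same limit. The receptor genes Ifngr1 and Ifnar2 were higher (1.48 and 0.38). The receptor gene Ifngr2 was lower (-0.32, SE 0.0769, adjusted p = 0.00591), and Ifnar1 did not pass (-0.08, SE 0.0621, adjusted p = 0.309). The kinase gene Jak1 was lower (-0.26). The interferon gene itself was higher, with Ifng at 10.4 ± 3.78 CPM in Satb1 cKO and 0.971 ± 0.817 CPM in control libraries, whereas Irf1 did not pass (adjusted p = 0.822).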

How the data were processed

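For each library the authors deposited a table of raw counts, whole numbers of reads per gene. The submitters' processing notes name STAR 2.7.3a, HTSeq 0.12.4 and the build mm10, without an annotation release or strand setting. Summary lines that name no gene were left out: reads on no feature were 7.45 ± 0.149% of a table in Satb1 cKO and 9.34 ± 0.158% in control libraries, and ambiguous reads 5.55 ± 0.0372% in Satb1 cKO and 5.42 ± 0.0147% in control libraries (SD, n = 3). GENCODE M21 gave names, positions and exon lengths for 55141 of 55401 identifiers, matched without version.

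Counts were fitted with edgeR 4.0.16 in R 4.3.3 (filterByExpr, TMM, glmQLFit, glmQLFTest, group as the only term), with Benjamini-Hochberg adjustment over 13364 genes and a threshold of 0.05. SE is the log2 fold change divided by the square root of F. TPM used the union of exons. The code was tested on simulated counts. Alternatives were DESeq2 1.42.0, other scalings, no filter, a fold threshold, the replicate number as a block, and leaving out each library. Members, lists, tests and the rule for named genes were chosen with earlier results of these data known. The rule took the immunoproteasome genes, their constitutive counterparts, Psme3, Psme4 and Psmf1, the called members of smallest p (up to 4) in the core, regulatory particle and assembly factors, and up to 4 called genes of smallest p per other list; list genes beyond these, and single values of Psmc3ip, Psme2b and Psmg3, were chosen after their values were seen. Some genes of the other lists are not reported here by name.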

Additional observations from a re-analysis of the deposited data

How the results depend on the processing

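With DESeq2 size factors, with scaling without immunoglobulin, T cell receptor, mitochondrial and globin genes, with DESeq2's Wald test, without a filter and with a replicate block, 26 of the 27 called members kept their call in each, and no called member changed sign under any alternative. In the fit without a filter the estimated prior degrees of freedom were infinite. A gene's own spread between replicates did not enter its p there, so that fit says nothing about stability. Psmb8 was the call lost, except without a filter, where it was Psma7. The immunoproteasome count was thus 1 with DESeq2 size factors, the reduced scaling, DESeq2's Wald test and the replicate block. The test of a fold above 1.2, which sets a higher bar, called 3 members, with 1 each in the core, immunoproteasome and regulatory particle and 0 in the assembly factors. Leaving out 1 library at a time gave 25 to 26 members higher and 0 to 2 lower (Psmb9 and Psmb10, without control replicate 1), with 1 to 3 immunoproteasome and 1 to 2 assembly factor genes called (Psmd5 in addition, without control replicate 1). Of the 27 members, 23 were called in all 6 of these fits; the others were Psmb8, Psma7, Psma5 and Psmd14. Uncalled members with log2 fold changes near 0 changed sign, none of them called where they did. Over the leave-one-out fits Psme1 ran from -0.067 to 0.059, Psmb9 from -0.22 to 0.12, Psmc3ip from -0.085 to 0.024, Psmf1 from -0.018 to 0.075 and Psmg1 from -0.011 to 0.074. Psme1 was also at -0.0067 without a filter and Psmb9 at 0.0097 with the replicate block. The difference in log2 ratio of Psmb8 to Psmb5 ran from -0.087 to 0.18, at -0.087 without control replicate 1 and -0.034 without Satb1 cKO replicate 1; the causes of these sign changes were not tested. Replicate numbers were not shown to pair the libraries: deviations of same-numbered libraries correlated at 0.034, -0.0089 and 0.028, and Satb1 cKO replicate 1 correlated best with control replicate 2. The replicate block gave 26 members higher. Summed TPM of the 4 role groups kept their direction without each library and with the longest coding transcript as length (both chosen after seeing the data), and the immunoproteasome rise was 4.62% without control replicate 1, against 10.2% with it. Within that group mean Psme2 was 638 TPM in Satb1 cKO and 491 TPM in control libraries, and mean Psme1 625 and 635 TPM. The inducible catalytic genes summed to 235, 204 and 209 TPM in Satb1 cKO libraries and 164, 247 and 237 TPM in control libraries. Their mean sum was 0.17% higher in Satb1 cKO. With 3 libraries a group, permutation tests of ratios cannot reach 0.05, so their p says nothing about stability.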
